A study of Mus musculus with 16 samples.

Results

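The 10 genes described here carry dietary fat through the absorptive cell of the intestine: the fatty acid binding proteins Fabp1 and Fabp2, the fatty acid translocase Cd36, the acyltransferases Dgat1 and Dgat2, the lipid transfer protein Mttp, and the apolipoproteins Apob, Apoa1, Apoa4 and Apoc3. They were chosen by name, for their role, out of 54123 genes with a transcript in the tables, and 8 of the 10 were among the 15289 genes with enough reads to be tested. RNA was sequenced from organoids, which are epithelial cultures grown in gel from stem cells of the mouse colon. The 16 libraries form 8 groups of 2, made by crossing the colon segment of origin (proximal or distal), the guide RNA (Scramble-sgRNA as the control or Cdx2-sgRNA) and the final medium (WENR-plus or WENR-minus). WENR-plus holds the stem cell niche factors Wnt3a, EGF, Noggin and R-Spondin-1 and WENR-minus lacks them. The comparisons ask what removal of these factors, and mutation of the intestinal homeobox factor Cdx2, did to RNA levels in each segment.

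All groups came from female mice of 8 weeks, heterozygous for a BRAFV600E allele and for a tdTomato reporter that both need Cre to become active, and no Cre is named for these libraries. The organoids were taken from 2 mice, received Cas9 and a guide by lentivirus, were under drug selection for 2 weeks and had been cultured for 4 months. For the WENR-minus groups, 2 days in WENR-plus were followed by 3 days in WENR-minus. The Cdx2-sgRNA lines were grown up from single cells and carried frameshift mutations in both Cdx2 alleles, so each is 1 clone, whereas no step through single cells is described for the Scramble-sgRNA lines. A difference between the guides can therefore not be told apart from a difference between a clone and a mixed culture. Cdx2 transcripts themselves are still counted when they carry a frameshift. They stood at 127 to 203 CPM (reads scaled to a common library size by the counts-per-1e+06 convention) in the proximal Scramble-sgRNA libraries and 29.9 to 73.9 CPM in the proximal Cdx2-sgRNA libraries, whereas the distal libraries held 67.9 to 112 CPM with Scramble-sgRNA and 50.2 to 126 CPM with Cdx2-sgRNA, so in distal organoids the RNA level does not check the label.

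In the small intestine, fatty acids taken up at the apical membrane are bound by the small cytosolic proteins Fabp1 and Fabp2, re-esterified to triglyceride in the endoplasmic reticulum, where Dgat1 and Dgat2 catalyse the last step, and loaded by Mttp onto a single molecule of apolipoprotein B. Apoa4, Apoa1 and Apoc3 join the surface of the particle, which leaves the cell as a chylomicron. These genes are known for high expression in enterocytes of the small intestine and, for the apolipoproteins, in liver, and for low expression in colonocytes.

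The promoters of 7 of the 10 genes were available from RefSeq (GRCm38.p6), as windows from 250 bases before to 50 bases after the start of transcription. The 4 shown here belong to the member with no read in any library (Fabp1), the member that fell with Cdx2-sgRNA (Fabp2) and a pair that was highest in distal Cdx2-sgRNA organoids without niche factors (Apoa4 and Apob). Each line gives the 250 bases before the RefSeq start, 5′ to 3′ on the strand of the gene. Capitals mark letters that match a motif searched for on both strands. For Fabp1, Apoa4 and Apob the RefSeq start lies inside the gene as GENCODE places it. GENCODE starts these genes at 71199827, 46240696 and 7977648, so their windows hold bases after the GENCODE start. The regions are chr6:71199629-71199878 (plus strand), chr3:122894822-122895071 (plus strand), chr9:46240594-46240843 (plus strand) and chr12:7977427-7977676 (plus strand) in this order.
Fabp1: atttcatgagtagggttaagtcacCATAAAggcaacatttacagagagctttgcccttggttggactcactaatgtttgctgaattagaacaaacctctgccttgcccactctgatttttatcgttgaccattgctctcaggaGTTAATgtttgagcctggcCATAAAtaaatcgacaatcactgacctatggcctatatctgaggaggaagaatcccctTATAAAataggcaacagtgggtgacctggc
Fabp2: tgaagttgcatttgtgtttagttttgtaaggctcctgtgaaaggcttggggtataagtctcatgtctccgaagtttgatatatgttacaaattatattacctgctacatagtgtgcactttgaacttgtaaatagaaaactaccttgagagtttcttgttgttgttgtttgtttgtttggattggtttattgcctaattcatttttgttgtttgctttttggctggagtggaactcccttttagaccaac
Apoa4: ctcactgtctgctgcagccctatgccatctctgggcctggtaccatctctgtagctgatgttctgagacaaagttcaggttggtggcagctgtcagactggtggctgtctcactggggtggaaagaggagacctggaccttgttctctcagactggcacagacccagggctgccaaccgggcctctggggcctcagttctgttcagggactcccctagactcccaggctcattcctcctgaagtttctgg
Apob: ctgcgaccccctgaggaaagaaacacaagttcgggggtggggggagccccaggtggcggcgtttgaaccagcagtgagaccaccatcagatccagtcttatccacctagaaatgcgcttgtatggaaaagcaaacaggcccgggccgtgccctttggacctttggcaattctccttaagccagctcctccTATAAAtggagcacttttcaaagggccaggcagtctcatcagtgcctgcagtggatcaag

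The letters searched for CDX factors were TTTATG, which 11.9% of all 32851 promoter windows of this length hold on either strand. For HNF4 they were CAAAGTCC, found in 1.42% of the windows. For HNF1, part of the site, GTTAAT, was searched, which 7.1% hold. The GATA factor letters were TGATAA, present in 9.05%, and the TATA box was read as TATAAA, present in 13.6%. The Fabp1 window held 2 matches to the CDX letters, with first bases at -226 and -88 from the start, 1 to the HNF1 letters at -107 and 1 to the TATA box at -30. In the Apob window the TATA box letters began at -60, counted from the RefSeq start, which lies downstream of the GENCODE start. The Cd36 window held the CDX letters at -232. Apoa1 matched the GATA letters at 16 bases after the start. Neither the Fabp2, the Apoa4 nor the Mttp window held any of the 5 motifs. These are matches of letters in short windows and not sites.

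Library totals ran from 12465194 to 18922143 estimated reads, and 15.4% to 28% of the reads of a library came from mitochondrial ribosomal RNA. All libraries held colonocyte markers: the summed level of 10 of them (such as Car1, Car4, Slc26a3, Aqp8 and Krt20) ran from 615 CPM in a proximal Cdx2-sgRNA library in WENR-plus to 25533 CPM in a distal Cdx2-sgRNA library in WENR-minus. Of 8 hepatocyte markers, 6 stayed under 1 CPM in every library. Fga and Cyp2e1 had no read at all, and the exceptions were Alb (albumin) and Tat. The 5 adipocyte markers summed to at most 0.335 CPM in any library.

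Fabp1 (chr6:71199827-71205023, plus strand), which encodes the liver-type fatty acid binding protein that small intestinal enterocytes share with hepatocytes, had 0 reads in all 16 libraries. A count of 0 allows a level of at most 0.143 to 0.254 CPM, taken as 3 reads in the deepest and the shallowest library on this scale. Its only transcript, of 553 bases, is in every table. No comparison of Fabp1 could be made. Positions of genes are those of GENCODE vM21 on GRCm38.

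Fabp2 (chr3:122895072-122899506, plus strand), the intestinal fatty acid binding protein, was present in every library, with 12 to 1422 reads. Its level rose when niche factors were withdrawn from proximal control organoids and was lower with Cdx2-sgRNA. In proximal Scramble-sgRNA organoids it stood at 5.30 and 9.17 CPM in WENR-plus and at 88.1 and 72.5 CPM in WENR-minus. The proximal Cdx2-sgRNA libraries held 0.812 and 0.740 CPM in WENR-plus and 0.891 and 0.952 CPM in WENR-minus. All 4 of these lie below every proximal control library, and the groups do not overlap. In distal Scramble-sgRNA organoids the levels were 10.6 and 2.42 CPM in WENR-plus and 41.0 and 7.67 CPM in WENR-minus, and in distal Cdx2-sgRNA organoids 1.55 and 2.49 CPM in WENR-plus and 2.96 and 2.26 CPM in WENR-minus. The distal control replicates differ by several fold within each medium, and replicate 1 was the higher in both, so the distal control media overlap and so do the distal guides in WENR-plus.

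On the log2 scale, withdrawal raised Fabp2 by 3.48 (adjusted p = 0.00561, SE 0.74) in proximal Scramble-sgRNA organoids. In distal Scramble-sgRNA organoids the fitted change was 1.90 (SE 0.71) with an adjusted p of 0.0521, just short of the threshold, and with the replicate number as a block it was 1.87 with an adjusted p of 0.0450, which passes. It also passed with RLE scaling (0.0444), at least 10 counts in every library (0.0385), length offsets (0.0477), DESeq2 (0.0144) and no filter, and missed in a fit of these 4 libraries alone (0.1254). The change was 3.37 with an adjusted p of 0.0123 without WENR-plus replicate 1 and 2.65 with 0.00823 without WENR-minus replicate 2, but 0.23 with 0.838 without WENR-minus replicate 1 and 1.29 with 0.238 without WENR-plus replicate 2. In Cdx2-sgRNA organoids the changes on withdrawal were 0.25 (adjusted p = 0.914, SE 0.95) in proximal and 0.37 (adjusted p = 0.738, SE 0.80) in distal cultures. The difference between guides in proximal organoids was -6.43 (adjusted p = 0.000338, SE 0.90) in WENR-minus and -3.21 (adjusted p = 0.0179, SE 0.84) in WENR-plus. The distal difference was -3.22 (adjusted p = 0.0271, SE 0.78) in WENR-minus and -1.69 (adjusted p = 0.760, SE 0.75) in WENR-plus.

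The proximal Fabp2 difference in WENR-minus passed with any 1 of its 4 libraries left out. The distal one did not: without distal Scramble-sgRNA WENR-minus replicate 1 it was -1.56 with an adjusted p of 0.209, and without either Cdx2-sgRNA library it kept its size (-3.42 and -3.04) with adjusted p values of 0.117 and 0.162. In proximal WENR-plus, adjusted p values of 0.0762, 0.0859 and 0.101 resulted without Cdx2-sgRNA replicate 1, Scramble-sgRNA replicate 2 and Cdx2-sgRNA replicate 2. The proximal rise on withdrawal had an adjusted p of 0.0520 without Scramble-sgRNA WENR-plus replicate 1. The difference between the segments in the Cdx2-sgRNA effect on Fabp2 was -3.21 (adjusted p = 0.0693, SE 1.11) in WENR-minus and -1.52 (adjusted p = 0.486, SE 1.12) in WENR-plus, and neither passed. Without distal Scramble-sgRNA WENR-minus replicate 1 the first was -4.88 with an adjusted p of 0.0113, which passes. Without the filter on low counts both passed, with adjusted p values of 1.5e-10 and 0.0282, and so did the distal difference between guides in WENR-plus (adjusted p = 7.3e-06). For some members p values without the filter were far smaller than in the other fits, so nothing is rested on that fit. With the proximal fall of Fabp2 went the marker sums: the 10 colonocyte markers held 11205 and 15331 CPM in proximal Scramble-sgRNA WENR-minus libraries and 1466 and 2902 CPM in the Cdx2-sgRNA ones, and 8 of the 10 passed as lower. The 8 small intestinal enterocyte markers summed to 169 to 186 CPM with Scramble-sgRNA and 0.899 to 1.26 CPM with Cdx2-sgRNA in these libraries, with 4 of the 6 tested called lower. Markers of secretory cells were lower too: 7 goblet cell markers summed to 6280 to 7484 CPM with Scramble-sgRNA and 54.1 to 73.5 CPM with Cdx2-sgRNA, all 7 called, and 6 enteroendocrine markers to 142 to 227 CPM and 0.899 to 1.93 CPM, all 6 called. The part of these shifts in the Fabp2 result was not tested. In bulk RNA, fewer cells of a type and less RNA per cell cannot be told apart. In distal WENR-minus organoids the colonocyte markers summed to 24782 to 25533 CPM with Cdx2-sgRNA and 11993 to 17441 CPM with Scramble-sgRNA, with 1 of the 10 called higher and 1 lower.

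**Figure D1:**
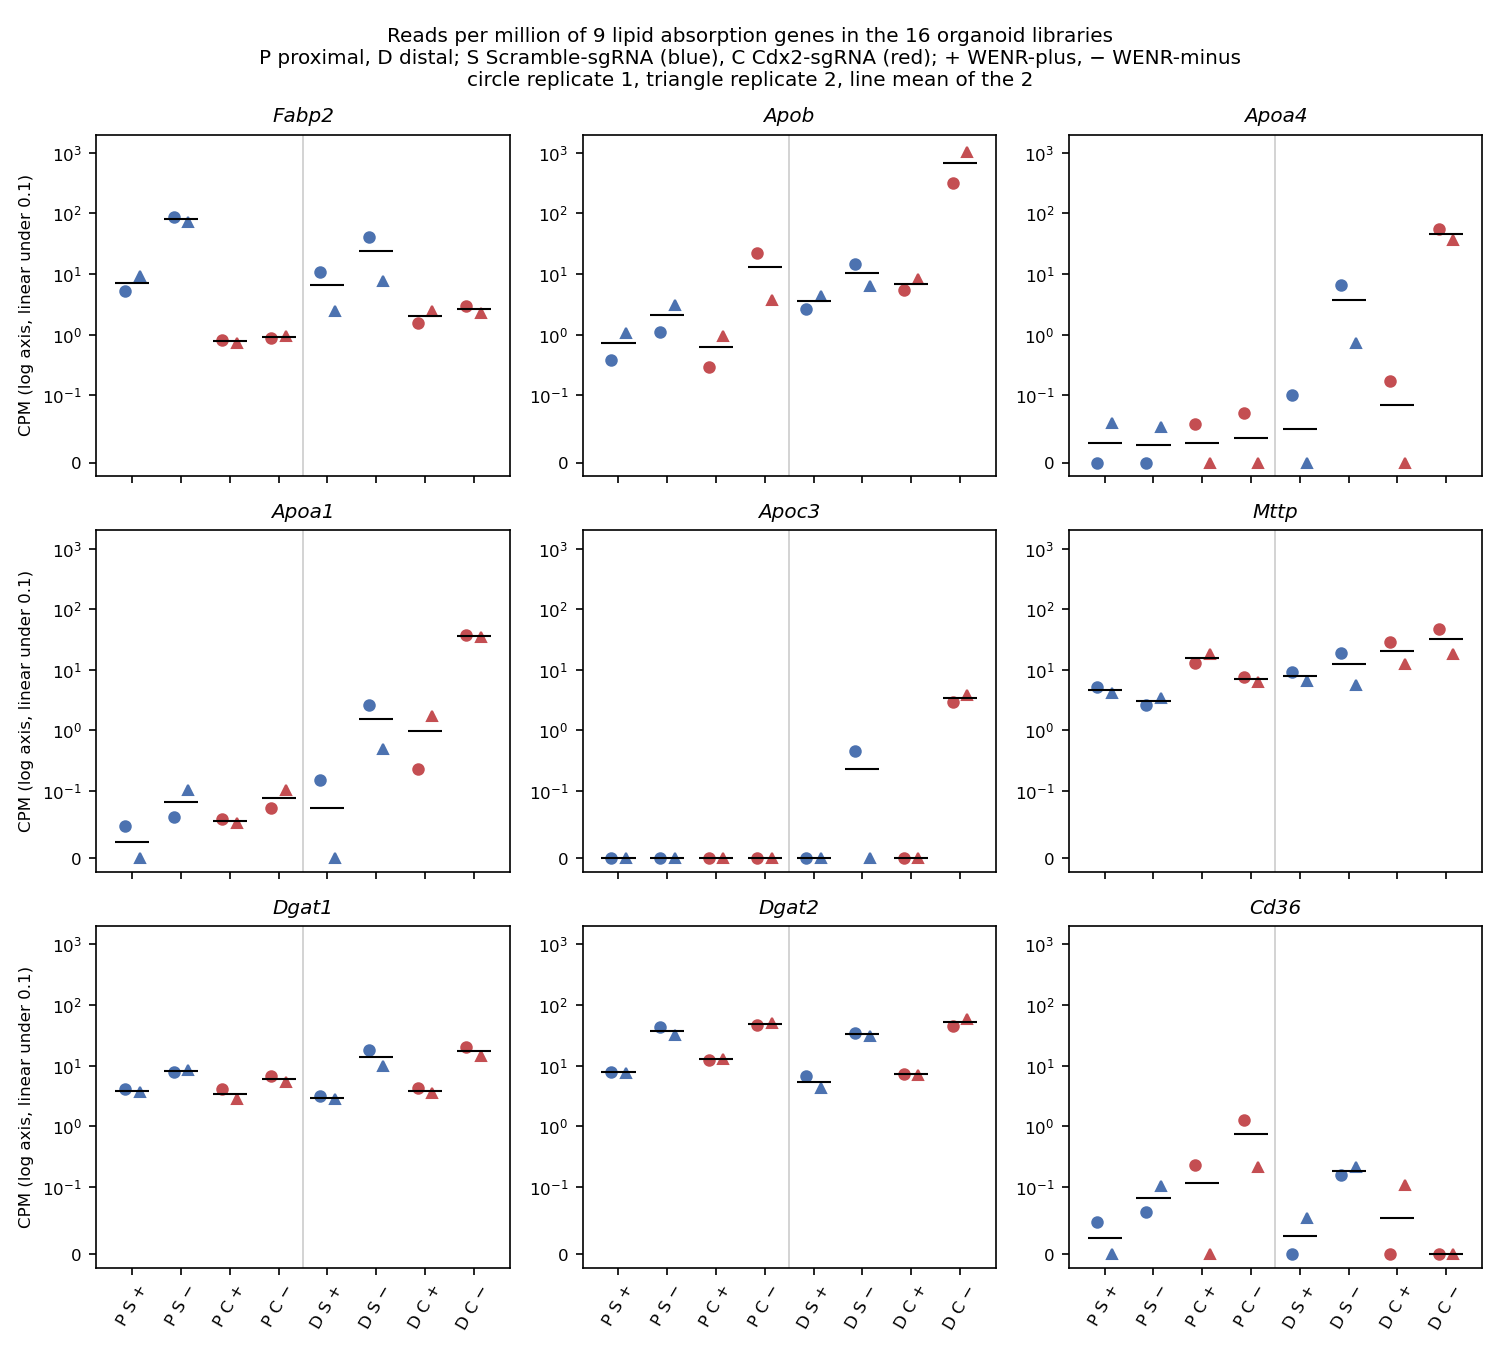
Level of 9 members in each of the 16 libraries, in CPM on a log axis that is linear under 0.1, with proximal groups to the left of the grey line and distal groups to the right, circles and triangles for replicates 1 and 2 and a line at the mean of both. Fabp2 is lowest in the proximal Cdx2-sgRNA libraries (0.740 to 0.952 CPM), and Apob, Apoa4, Apoa1 and Apoc3 are highest in the 2 distal Cdx2-sgRNA WENR-minus libraries.

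Cd36 (chr5:17781690-17888801, minus strand), a scavenger receptor that takes up long-chain fatty acids, was near the limit of detection, with 37 reads in all libraries together, and was not tested. Proximal Cdx2-sgRNA WENR-minus replicate 1 held 17 of them and replicate 2 held 4. The proximal Scramble-sgRNA WENR-minus libraries held 1 and 2 reads, and the ratio of the summed reads on the scaled depths was 7.64, with an exact 95% counting interval of 2.28 to 40.0 that covers counting error only. The same replicate 1 library also had the highest sum of 6 leukocyte markers, 20.3 CPM, of which the macrophage receptor gene Csf1r made up 19.4 CPM, and 5 of the 6 stayed under 1 CPM in every library. Their part in the Cd36 reads was not tested. In every other group Cd36 had 0 to 4 reads per library.

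Dgat2 and Dgat1, which complete triglyceride synthesis, were present in every library and were higher in WENR-minus (Dgat2 at chr7:99153658-99182719, minus strand). Dgat2 stood at 7.79 and 7.58 CPM in proximal Scramble-sgRNA WENR-plus libraries and at 42.8 and 32.3 CPM in WENR-minus. In proximal Cdx2-sgRNA libraries it went from 12.4 and 12.8 to 46.2 and 50.6 CPM. Distal Scramble-sgRNA libraries held 6.66 and 4.19 CPM in WENR-plus and 34.4 and 30.9 CPM in WENR-minus, and distal Cdx2-sgRNA libraries 7.34 and 7.04 against 45.0 and 58.8 CPM. Every WENR-minus library lies above every WENR-plus library, whatever the segment or guide. The rise on withdrawal was 2.29 (SE 0.22), 1.94 (SE 0.22), 2.59 (SE 0.23) and 2.85 (SE 0.23) on the log2 scale in proximal Scramble-sgRNA, proximal Cdx2-sgRNA, distal Scramble-sgRNA and distal Cdx2-sgRNA organoids, with adjusted p values of 0.000186, 0.000980, 3.27e-05 and 6.905e-06. With the rise on withdrawal went the cell type markers: of 10 colonocyte markers, 8, 2, 9 and 8 were called higher in these 4 cultures, with 1 called lower in the last. Of 5 stem cell markers (such as Lgr5 and Ascl2) 4, 3, 4 and 5 were called lower. Of 6 cycling cell markers (such as Mki67 and Top2a), 5 were called lower in each culture except proximal Cdx2-sgRNA, where none was. The same markers moved beside the withdrawal results of Fabp2, Dgat1 and Apob, and their part in these results was not tested. In a fit of the proximal Cdx2-sgRNA libraries alone the change was 1.94 and its adjusted p 0.122.

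Dgat1 followed at lower levels (Dgat1 at chr15:76502015-76511953, minus strand). Its WENR-plus libraries held 2.80 to 4.18 CPM in all segments and guides. In WENR-minus, proximal Scramble-sgRNA libraries held 7.93 and 8.44 CPM, proximal Cdx2-sgRNA libraries 6.61 and 5.34 CPM, distal Scramble-sgRNA libraries 18.1 and 9.75 CPM and distal Cdx2-sgRNA libraries 20.0 and 14.3 CPM. In CPM the groups do not overlap between media, and the distal WENR-minus libraries are the highest. In TPM, a level corrected for transcript length, the media do not overlap either, but that order of the segments does not hold. There, distal Scramble-sgRNA WENR-minus replicate 2 lies below proximal Scramble-sgRNA replicate 2 and proximal Cdx2-sgRNA replicate 1 of the same medium. The change was 2.23 (adjusted p = 0.000353, SE 0.33) in distal Scramble-sgRNA and 2.16 (adjusted p = 0.000238, SE 0.32) in distal Cdx2-sgRNA organoids. It was 1.08 (adjusted p = 0.0245, SE 0.32) in proximal Scramble-sgRNA organoids, close to the fold threshold, with adjusted p values of 0.0631 to 0.118 when any 1 of the 4 libraries was left out, and 0.80 (adjusted p = 0.123, SE 0.32) in proximal Cdx2-sgRNA organoids. The difference between segments in control organoids was -1.15 (adjusted p = 0.411, SE 0.44). The differences between guides were -0.46 to 0.38 for Dgat1 and 0.37 to 0.71 for Dgat2 across the 4 comparisons, and none passed. For Dgat2 the closest were 0.71 (adjusted p = 0.0354, SE 0.22) in proximal WENR-plus, which missed on its size, and 0.67 (adjusted p = 0.0700, SE 0.21) in distal WENR-minus.

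Mttp (chr3:138089854-138144968, minus strand), the transfer protein that lipidates apolipoprotein B, passed the test on withdrawal in none of the 4 cultures. Its levels were 5.11 and 4.14 CPM in proximal Scramble-sgRNA WENR-plus and 2.67 and 3.39 CPM in WENR-minus libraries. In proximal Cdx2-sgRNA libraries they were 13.1 and 17.98 CPM in WENR-plus and 7.57 and 6.35 CPM in WENR-minus. Distal Scramble-sgRNA libraries held 9.26 and 6.61 CPM in WENR-plus and 18.9 and 5.66 CPM in WENR-minus, and distal Cdx2-sgRNA libraries 28.3 and 12.3 against 47.6 and 17.98 CPM. In proximal organoids both Cdx2-sgRNA libraries lie above both controls in each medium, whereas in distal WENR-minus the guides overlap, although within each replicate number the Cdx2-sgRNA library is the higher in both distal media. In proximal organoids of either guide both WENR-minus libraries lie below both WENR-plus libraries. In all 4 comparisons the fitted difference between guides was positive but did not pass: 1.74 (adjusted p = 0.0502, SE 0.59) in proximal WENR-plus, 1.19 (adjusted p = 0.156, SE 0.60) in proximal WENR-minus, 1.35 (adjusted p = 0.721, SE 0.57) in distal WENR-plus and 1.42 (adjusted p = 0.145, SE 0.57) in distal WENR-minus. With the replicate number as a block the first of these was 1.83 with an adjusted p of 0.0208, which passes, and it also passed with RLE scaling, at least 10 counts, length offsets, the compared groups alone and DESeq2 (adjusted p of 0.0129 to 0.0469). Without the filter on low counts all 4 differences between guides passed, with adjusted p values of 1.707e-07 to 0.00126. As for Fabp2, nothing is rested on the fit without the filter. The changes of Mttp on withdrawal ran from -1.16 to 0.69, and the lowest, in proximal Cdx2-sgRNA organoids (adjusted p = 0.214, SE 0.58), had an adjusted p of 0.00297 without the filter. The distal ones, 0.62 and 0.69, turned to -0.49 and -0.17 without replicate 1 of the distal WENR-minus group of that guide.

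Apob (chr12:7977648-8016835, plus strand), the core protein of chylomicrons and of liver lipoproteins, was highest in the distal Cdx2-sgRNA WENR-minus libraries. There it stood at 320 and 1016 CPM (3784 and 12150 reads), although it was low in all other groups. Distal Scramble-sgRNA libraries held 14.5 and 6.38 CPM in WENR-minus and 2.65 and 4.41 CPM in WENR-plus, and distal Cdx2-sgRNA libraries 5.50 and 8.41 CPM in WENR-plus. In proximal Scramble-sgRNA libraries the levels were 0.382 and 1.07 CPM in WENR-plus and 1.12 and 3.08 CPM in WENR-minus, and proximal Cdx2-sgRNA libraries held 0.290 and 0.952 against 22.2 and 3.76 CPM. The lower of the 2 distal Cdx2-sgRNA WENR-minus libraries lies above each of the other 14 libraries, and the pair differ 3.17-fold from each other, where the libraries of the other groups differ 1.53- to 5.91-fold. The transcript Apob-202, of 13934 bases, took 96.6% of the Apob reads.

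The fitted difference between guides was 6.004 (adjusted p = 0.00518, SE 0.93) in distal WENR-minus and 0.98 (adjusted p = 0.968, SE 0.84) in distal WENR-plus. Without distal Scramble-sgRNA WENR-minus replicate 2 the first was 5.53 with an adjusted p of 0.0690. In proximal WENR-minus, where length offsets or a fit of the compared groups alone called 1 member instead of 2, the difference was 2.58 (adjusted p = 0.0455, SE 0.89). It rests on Cdx2-sgRNA replicate 1, without which it was 0.85 with an adjusted p of 0.501. Without Scramble-sgRNA replicate 1 or 2 it was 2.07 and 3.49 with adjusted p values of 0.218 and 0.0760. The proximal WENR-plus difference was -0.15 (adjusted p = 0.953, SE 1.28). Withdrawal raised Apob by 6.58 (adjusted p = 0.000196, SE 0.96) in distal and by 4.33 (adjusted p = 0.0192, SE 1.03) in proximal Cdx2-sgRNA organoids. A fit of the compared groups alone called no gene at all in the proximal comparison, Apob included. The proximal rise had adjusted p values of 0.0914, 0.136 and 0.0899 without Cdx2-sgRNA WENR-plus replicate 1, WENR-minus replicate 1 and WENR-plus replicate 2. In Scramble-sgRNA organoids the changes were 1.60 (adjusted p = 0.302, SE 1.09) in proximal and 1.56 (adjusted p = 0.164, SE 0.84) in distal cultures. The distal one passed in a fit of the compared groups alone (1.58, adjusted p = 0.0381). Both passed without the filter on low counts, a fit on which nothing is rested. The difference between the guides in the distal response was 5.02 (adjusted p = 0.244, SE 1.18). At the same threshold edgeR called 0 of 15289 genes in that comparison (0%), with 1457 at an unadjusted p under 0.05, whereas DESeq2 called 120 genes, Apob among them (adjusted p = 0.0196).

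Apoa1, Apoc3 and Apoa4 encode exchangeable apolipoproteins of chylomicrons and high density lipoprotein and lie within 14.9 kilobases on chromosome 9 (GRCm38, from 46228580 to 46243459), with Apoc3 (chr9:46232933-46235636, minus strand) between Apoa1 (chr9:46228580-46230466, plus strand) and Apoa4 (chr9:46240696-46243459, plus strand). They passed the filter on low counts only through the distal libraries, so they had to differ there. The counts, calls and p values of these 3 genes below, between guides, media and segments, are therefore descriptions and not tests. Apoa4 had 644 and 437 reads (54.5 and 36.6 CPM) in the distal Cdx2-sgRNA WENR-minus libraries, 87 and 10 reads (6.69 and 0.717 CPM) in the distal Scramble-sgRNA WENR-minus libraries and 0 to 3 reads in each of the other 12. Apoa1 had 445 and 422 reads (37.7 and 35.3 CPM) in the first pair, 34 and 7 reads (2.62 and 0.502 CPM) in the second, 4 and 33 reads in distal Cdx2-sgRNA WENR-plus and 0 to 3 reads elsewhere. Apoc3 had 35 and 46 reads (2.96 and 3.85 CPM) in distal Cdx2-sgRNA WENR-minus, 6 and 0 in distal Scramble-sgRNA WENR-minus and none elsewhere. In none of the 3 genes did the distal Cdx2-sgRNA WENR-minus libraries overlap with another group. Apoa5, the neighbour of this cluster that is expressed in liver, stayed at or under 0.167 CPM in all libraries.

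As a description, the fitted difference between guides in distal WENR-minus organoids was 4.55 (adjusted p = 0.0107, SE 0.86) for Apoa1 and 3.62 (adjusted p = 0.0286, SE 0.89) for Apoa4, and for Apoc3 3.86 (adjusted p = 0.146, SE 1.32). Without distal Scramble-sgRNA replicate 2, the lower of the controls, these adjusted p values became 0.0885 for Apoa1 and 0.135 for Apoa4, with differences of 3.80 and 2.76. Leaving out Cdx2-sgRNA replicate 2 gave 0.0521 for Apoa1 and 0.0941 for Apoa4, and leaving out replicate 1 gave 0.135 for Apoa4. On withdrawal, the fitted change of Apoa1 was 5.18 (adjusted p = 0.000579, SE 0.89) in distal Cdx2-sgRNA organoids. For the comparisons with a group at or under 3 reads per library, ratios of summed reads with exact 95% counting intervals are given instead of fitted changes. Withdrawal changed Apoa4 by a ratio of 551 (188 to 2676) in distal Cdx2-sgRNA and 69.4 (18.7 to 581) in distal Scramble-sgRNA organoids, with adjusted p values of 0.000162 and 0.00373. For Apoa1 in distal Scramble-sgRNA organoids the ratio was 19.6 (6.24 to 98.8), adjusted p = 0.0122. Both Scramble-sgRNA results rest on WENR-minus replicate 1, without which the adjusted p was 0.0578 for Apoa4 and 0.171 for Apoa1, and without WENR-plus replicate 2 it was 0.0777 for Apoa1. Apoc3 was at least 17.2-fold higher in distal Cdx2-sgRNA WENR-minus than in WENR-plus, against 3 reads per library (adjusted p = 0.0154, and 0.0515 to 0.0583 without either WENR-plus library or WENR-minus replicate 2). DESeq2 gave an adjusted p of 0.243 for this Apoc3 difference. In proximal organoids the 3 genes had at most 2 reads in any library and no change could be measured.

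The genes of this cluster and Apob are also made by hepatocytes, and liver markers were read in the same libraries. Alb stood at 189 and 76.8 CPM in distal Cdx2-sgRNA WENR-plus and 42.65 and 22.25 CPM in WENR-minus, and at 15.2 and 7.80 against 2.85 and 0.645 CPM with Scramble-sgRNA. It was lower after withdrawal in both distal cultures, and in WENR-minus it was higher with Cdx2-sgRNA, as the apolipoproteins were (4.22, adjusted p = 0.00974, SE 0.78). Tat, a liver aminotransferase gene, rose on withdrawal in both distal cultures, from 1.70 and 0.645 to 18.9 and 12.8 CPM with Scramble-sgRNA and from 0.573 and 0.159 to 16.6 and 18.6 CPM with Cdx2-sgRNA. Fga, Fgb, Fgg, Ahsg and Cyp2e1 had no read in the distal Cdx2-sgRNA WENR-minus libraries, and Fabp1 had none in any library. The 8 small intestinal enterocyte markers (such as Sis, Lct, Alpi and Slc5a1) summed to 343 to 548 CPM in these libraries and 247 to 253 CPM in the distal Scramble-sgRNA WENR-minus libraries, and none of the 6 tested passed between the guides. Lct, the lactase gene, was at 0 reads in the distal Cdx2-sgRNA WENR-minus libraries. The part of liver-like or enterocyte-like cells in the apolipoprotein and Apob results was not tested.

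**Figure D2:**
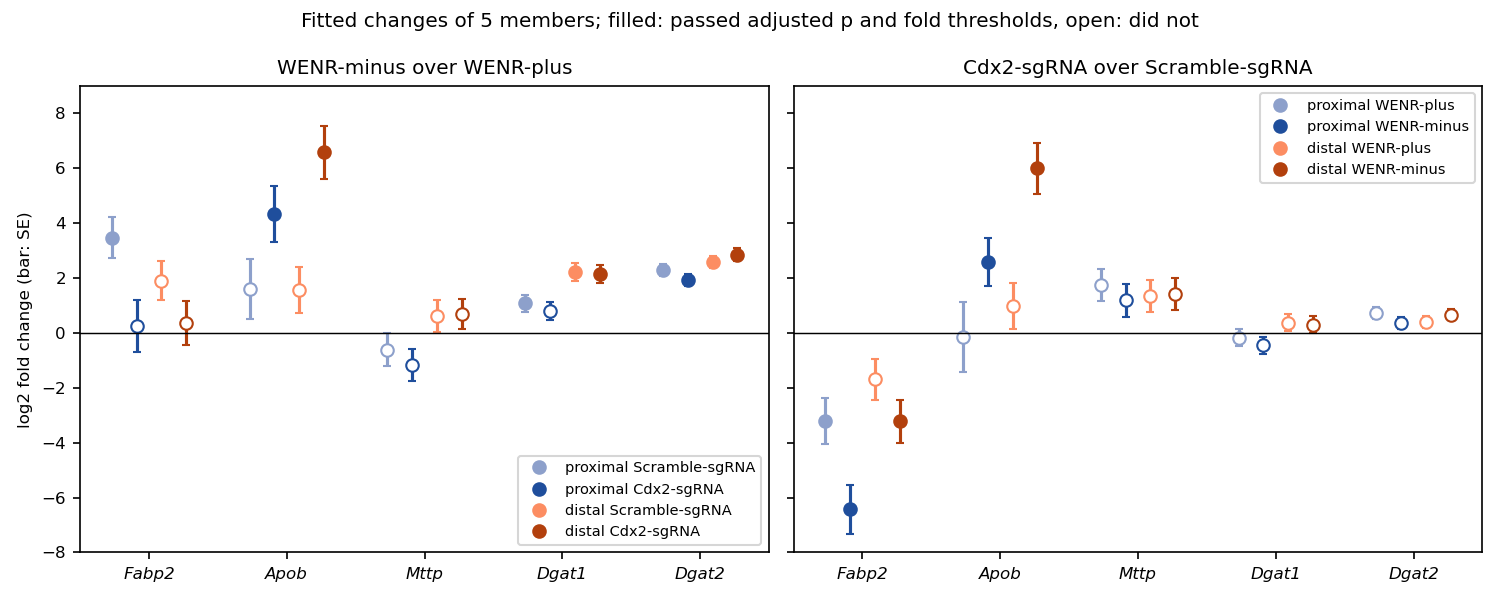
Fitted log2 fold changes with their SE for the 5 members that had more than 3 reads in every library, on withdrawal of the niche factors (left) and between guides (right), with filled points where the adjusted p was under 0.05 and the change over 1 on the log2 scale. Dgat2 rises in all 4 cultures, Fabp2 is lower with Cdx2-sgRNA in 3 of the 4 comparisons and not called in distal WENR-plus, and Apob rises by 6.58 and 6.004 in the comparisons that hold the distal Cdx2-sgRNA WENR-minus libraries.

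Counted over the 10 members, with the share of all tested genes beside each count, withdrawal raised 3 members in proximal Scramble-sgRNA organoids (Dgat1, Fabp2 and Dgat2, where 8.73% of all genes were called higher and 8.24% lower), 4 in distal Scramble-sgRNA organoids (Dgat1, Dgat2, Apoa4 and Apoa1, against 12.2% higher and 14.2% lower), 2 in proximal Cdx2-sgRNA organoids (Apob and Dgat2, against 3.42% and 2.98%) and 6 in distal Cdx2-sgRNA organoids (Apob, Dgat1, Dgat2, Apoa4, Apoc3 and Apoa1, against 14.9% and 18.1%). No member was called lower on withdrawal. Between guides, 1 member was higher and 1 lower in proximal WENR-minus (Apob and Fabp2, against 9.04% and 12.1%), 3 higher and 1 lower in distal WENR-minus (Apob, Apoa4 and Apoa1 higher and Fabp2 lower, against 2.24% and 3.00%) and Fabp2 alone, lower, in proximal WENR-plus (against 6.93% higher and 8.94% lower). In distal WENR-plus no member was called, where 0.137% of all genes were higher and 0.124% lower, with 973 genes at an unadjusted p under 0.05. DESeq2 called none of the members there either. Since Apoa1, Apoa4 and Apoc3 entered the test through the libraries where they are high, these counts are a description.

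Between the segments, in Cdx2-sgRNA WENR-minus organoids 6 members were called, all lower in proximal cultures (34.6% of all genes were called in either direction). Apob differed by -5.71 (adjusted p = 0.000452, SE 0.92), Mttp by -2.24 (adjusted p = 0.00895, SE 0.59), Dgat1 by -1.52 (adjusted p = 0.00223, SE 0.32), and the others were Apoa1, Apoa4 and Apoc3, which were at the limit in proximal libraries. These 3 had entered the test through the distal libraries and had to differ here, so the count of 6 is a description, not to be read against the share of all genes, and so are their p values. The summed reads of Apoa1 were 394 times higher in distal organoids (134 to 1912), those of Apoa4 1472 times (264 to 58183), and Apoc3 was at least 13.3-fold higher, with adjusted p values of 0.000137, 0.000174 and 0.0164. Cell type markers moved in the same comparison: 8 of 10 colonocyte, 6 of 6 tested small intestinal enterocyte, 7 of 7 goblet cell and 6 of 6 enteroendocrine markers were called lower in proximal organoids, and 5 of 6 cycling cell markers higher. Their part in the member results was not tested. For Apoc3 the adjusted p was 0.0510 to 0.0612 without either distal library or proximal replicate 2, and 0.249 by DESeq2. The Mttp call had adjusted p values of 0.105 and 0.0593 without distal replicate 1 and proximal replicate 2. In Scramble-sgRNA WENR-minus organoids 3 of 10 colonocyte, 2 of 6 enteroendocrine and 1 of 6 tested small intestinal enterocyte markers were called lower in proximal cultures, and none of these higher. The part of these markers was not tested. There, 2 members were called (Apoa4 and Apoa1, against 6.08% of all genes), with ratios of 127 (22.3 to 5073) and 17.9 (5.72 to 90.4) towards distal, and the limit given for the filter holds. Both lost the call without proximal replicate 1 (adjusted p = 0.0730 for Apoa4 and 0.151 for Apoa1), distal replicate 1 (0.115 and 0.329) or proximal replicate 2 (0.0997 and 0.200), and Apoa1 had an adjusted p of 0.0530 with the replicate block. Mttp was at -2.01 (adjusted p = 0.0591, SE 0.61) there, and at an adjusted p of 0.0419, which passes, with the block, and of 0.0357 without distal replicate 2. Apob was at -2.29 (adjusted p = 0.129, SE 0.89) and Fabp2 at 1.72 (adjusted p = 0.141, SE 0.69), which became 3.39 with an adjusted p of 0.0342 without distal replicate 1.

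In WENR-plus, 2 members were called between the segments with Cdx2-sgRNA (Apob by -3.45, SE 1.03, adjusted p = 0.0280, and Apoa1 by a ratio of 18.4 towards distal, 4.75 to 158, adjusted p = 0.0320, against 17.0% of all genes), and neither call held without any 1 of the libraries, except that of Apoa1 without distal replicate 1: adjusted p values for Apob were 0.0591 to 0.132 and for Apoa1 up to 0.373. In that comparison 6 of 10 colonocyte, 7 of 7 goblet cell and 6 of 6 enteroendocrine markers were called lower in proximal organoids and 1 colonocyte marker higher. The part of these markers was not tested either. With Scramble-sgRNA no member was called, against 1.75% of all genes, with 2165 genes at an unadjusted p under 0.05, and DESeq2 called none. Where the differences between 2 such effects were tested, no member passed: the shares of all genes called were 14.3% and 4.98% for the Cdx2-sgRNA effect between segments in WENR-minus and WENR-plus, 3.60% for the withdrawal response between guides in proximal organoids and 0.0719% for the withdrawal response between segments with Scramble-sgRNA. The unadjusted p was under 0.05 in 4958, 3209, 3277 and 1503 genes. For Apob the segment difference of the Cdx2-sgRNA effect in WENR-minus was -3.42 (adjusted p = 0.0708, SE 1.19), and it passed, with an adjusted p of 0.0154, without proximal Cdx2-sgRNA replicate 1. DESeq2 called 1 member in the first of these differences (Fabp2, adjusted p = 0.0141), none in the second, Fabp2 (adjusted p = 0.0218) in the third and none in the last.

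**Figure D3:**
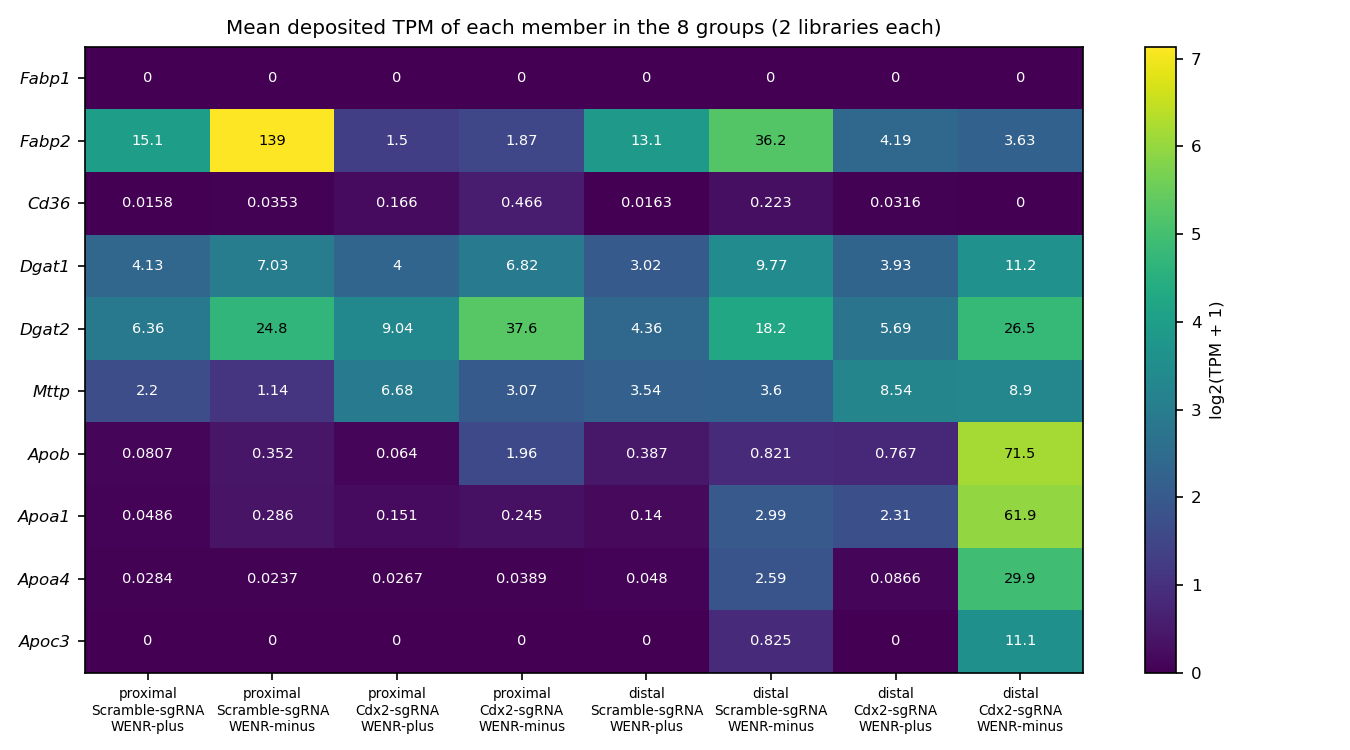
Mean level per transcript length of each member in the 8 groups, as deposited TPM values (transcript levels corrected for length, n = 2), with colour on the log2(TPM + 1) scale. The highest cells are Fabp2 in proximal Scramble-sgRNA WENR-minus (139 TPM) and Apob in distal Cdx2-sgRNA WENR-minus (71.55 TPM), and Fabp1 is at 0 throughout.

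Levels of different genes can be compared only per length, for which the deposited TPM values were used. In proximal Scramble-sgRNA WENR-minus organoids Fabp2, at 139 ± 8.51 TPM (SD, n = 2), was followed by Dgat2 at 24.8 ± 2.95 TPM and Dgat1 at 7.03 ± 0.709 TPM, and every lipoprotein member was at or under the 1.14 ± 0.241 TPM of Mttp. In distal Cdx2-sgRNA WENR-minus organoids the order was Apob at 71.55 ± 53.52 TPM, Apoa1 at 61.9 ± 8.10 TPM, Apoa4 at 29.85 ± 9.875 TPM, Dgat2 at 26.5 ± 3.83 TPM, Dgat1 at 11.2 ± 3.44 TPM, Apoc3 at 11.05 ± 0.769 TPM, Mttp at 8.90 ± 5.77 TPM and Fabp2 at 3.63 ± 0.849 TPM. The SD of Apob spans the levels of Apoa1, Apoa4 and Dgat2, Apoa4 and Dgat2 lie within their spread, and so do Dgat1, Apoc3 and Mttp and, below them, Mttp and Fabp2, so this order is not resolved between those neighbours. Distal Scramble-sgRNA WENR-minus organoids held Fabp2 at 36.2 ± 34.45 TPM and Dgat2 at 18.2 ± 0.520 TPM, with Apoa1 at 2.99 ± 2.41 TPM and Apob at 0.821 ± 0.4125 TPM. In all WENR-plus groups the apolipoproteins were at or under a group mean of 2.315 TPM.

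Across the 16 libraries, as a description, Pearson's r of log2(CPM + 0.5) was 0.96 between Apoa1 and Apoa4, 0.97 between Apoa4 and Apoc3, 0.91 between Apob and Apoa1 and 0.81 between Dgat1 and Dgat2. Fabp2 gave -0.15 with Apob and 0.01 with Apoa4. These values share the libraries and their depth. Among 9908 genes with a mean of at least 5 CPM, the genes whose group means were most like a member's over the 8 groups were Acads, Mrpl51 and 0610012G03Rik for Fabp2 (r of 0.992, 0.971 and 0.970), Ranbp10, Dnajb14 and Setd1b for Apob (0.979, 0.975 and 0.972) and Rab8b, Mpzl2 and Mill2 for Mttp (0.979, 0.941 and 0.923). Dcun1d3, Kyat1 and Gmip were most like Apoa4 (0.980, 0.976 and 0.973), Trpv6, Zfp467 and Gmip most like Apoa1 (0.977, 0.976 and 0.966), and Apoa4 itself, Unc119 and AU022252 most like Apoc3 (0.964, 0.956 and 0.954). For Dgat2 they were Dusp10, Stap2 and Tspan15 (0.997, 0.994 and 0.994), and for Dgat1 Cnst, Zbtb43 and Rab5c (0.994, 0.994 and 0.993). With only 8 points, a high r is common among so many genes.

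Beside the members, 73 other genes of lipid absorption were listed in 6 groups, and 66 of them were tested. On withdrawal, 21 were higher and none lower in proximal Scramble-sgRNA organoids, where 8.73% and 8.24% of all genes were, and 23 were higher and 1 lower in distal Scramble-sgRNA organoids (12.2% and 14.2% of all genes). In proximal Cdx2-sgRNA organoids 12 were higher and none lower (3.42% and 2.98%), and in distal Cdx2-sgRNA organoids 29 were higher and 5 lower (14.9% and 18.1%). In the same comparisons the colonocyte, stem cell and cycling cell markers moved as given for Dgat2. Of 7 goblet cell markers 4, 4, 0 and 4 were called higher, and of 6 enteroendocrine markers 5, 5, 0 and 4, and the part of such shifts was not tested. The median log2 change of the 66 genes was 0.70, 0.89, 0.41 and 1.11, where the median over all genes was -0.0554, -0.106, -0.0295 and -0.0971. Creb3l3, a transcription factor of apolipoprotein genes, rose from 0.355 to 0.478 CPM in proximal Scramble-sgRNA WENR-plus libraries to 9.59 to 20.6 CPM in WENR-minus (5.14, SE 0.72, adjusted p = 0.000695), and by 4.66 (adjusted p = 0.000417, SE 0.70) and 6.61 (adjusted p = 3.93e-05, SE 0.75) in distal Scramble-sgRNA and Cdx2-sgRNA organoids. Apobec1, the enzyme that edits Apob mRNA so that the shorter intestinal protein is made, rose by 4.00 (adjusted p = 0.000251, SE 0.45) in proximal and 4.31 (adjusted p = 6.28e-05, SE 0.46) in distal Scramble-sgRNA organoids. Cideb, which acts in lipoprotein lipidation, rose by 3.65 (adjusted p = 1.05e-05, SE 0.21) in proximal Scramble-sgRNA and 1.78 (adjusted p = 0.000835, SE 0.19) in proximal Cdx2-sgRNA organoids. Rbp2, which binds retinol in the enterocyte, went from 1 read in each distal Scramble-sgRNA WENR-plus library to 3.66 and 9.16 CPM in WENR-minus (adjusted p = 0.00123), and from 0.459 and 1.11 to 84.4 and 153 CPM with Cdx2-sgRNA (7.21, SE 0.88, adjusted p = 9.21e-05). Apoc2, the cofactor of lipoprotein lipase, rose in distal Cdx2-sgRNA organoids from 1.22 to 6.76 CPM up to 341 to 585 CPM (6.87, SE 0.94, adjusted p = 0.000132). In proximal Cdx2-sgRNA organoids the lipid droplet protein gene Cidec rose by 2.37 (adjusted p = 0.0459, SE 0.70) and Fabp5, the epidermal fatty acid binding protein gene, by 1.72 (adjusted p = 0.0174, SE 0.40).

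Between guides, 5 of the 66 other genes were higher and 18 lower in proximal WENR-minus, where 9.04% and 12.1% of all genes were and where the colonocyte, goblet cell and enteroendocrine markers were lower as given for Fabp2, with a median of -0.60 (all genes -0.000325), and 12 of the lower ones were among the 17 tested regulators. In distal WENR-minus 4 were higher and 1 lower (2.24% and 3.00% of all genes), with a median of 0.28 (all genes 0), and 61 were not called. In WENR-plus 4 were higher and 9 lower in proximal organoids (6.93% and 8.94% of all genes), and none was higher and 1 lower in distal organoids (0.137% and 0.124%). In proximal WENR-plus 5 of 10 colonocyte, 5 of 7 goblet cell and 4 of 6 enteroendocrine markers were also lower, and 1 colonocyte marker was higher. The homeobox gene Isx was lower in all 4: from 401 and 403 CPM to 1.26 and 0.846 CPM in proximal WENR-minus (-8.60, SE 0.28, adjusted p = 1.11e-08), by -7.33 (adjusted p = 4.81e-08, SE 0.26) in proximal WENR-plus, and by -1.84 (adjusted p = 0.00125, SE 0.20) and -2.96 (adjusted p = 0.000194, SE 0.21) in distal WENR-minus and WENR-plus. Cdx1, the paralog of Cdx2, changed by -8.26 (adjusted p = 4.71e-08, SE 0.33) and -6.62 (adjusted p = 1.69e-07, SE 0.29) in proximal WENR-minus and WENR-plus. A1cf, the partner of Apobec1, changed by -5.50 (adjusted p = 4.18e-06, SE 0.38) in proximal WENR-plus, and Gata4 went from 5.89 and 8.18 CPM to at most 1 read per library in proximal WENR-minus (adjusted p = 0.0442). Higher in distal WENR-minus were Fabp4, the adipocyte fatty acid binding protein gene, from at most 0.287 CPM to 12.4 and 18.3 CPM (6.63, SE 1.06, adjusted p = 0.00573), and Rbp2, by 4.21 (adjusted p = 0.00919, SE 0.74). The segment difference of the guide effect in WENR-minus was called for 23 of the 66 (14.3% of all genes), 1 towards proximal and 22 towards distal, with a median of -0.87 where all genes had 0. In that comparison 8 of 10 colonocyte, 7 of 7 goblet cell and 6 of 6 enteroendocrine markers were called towards distal and 4 of 6 cycling cell markers towards proximal. The part of these marker shifts in the counts of the 66 genes was not tested.

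**Figure D4:**
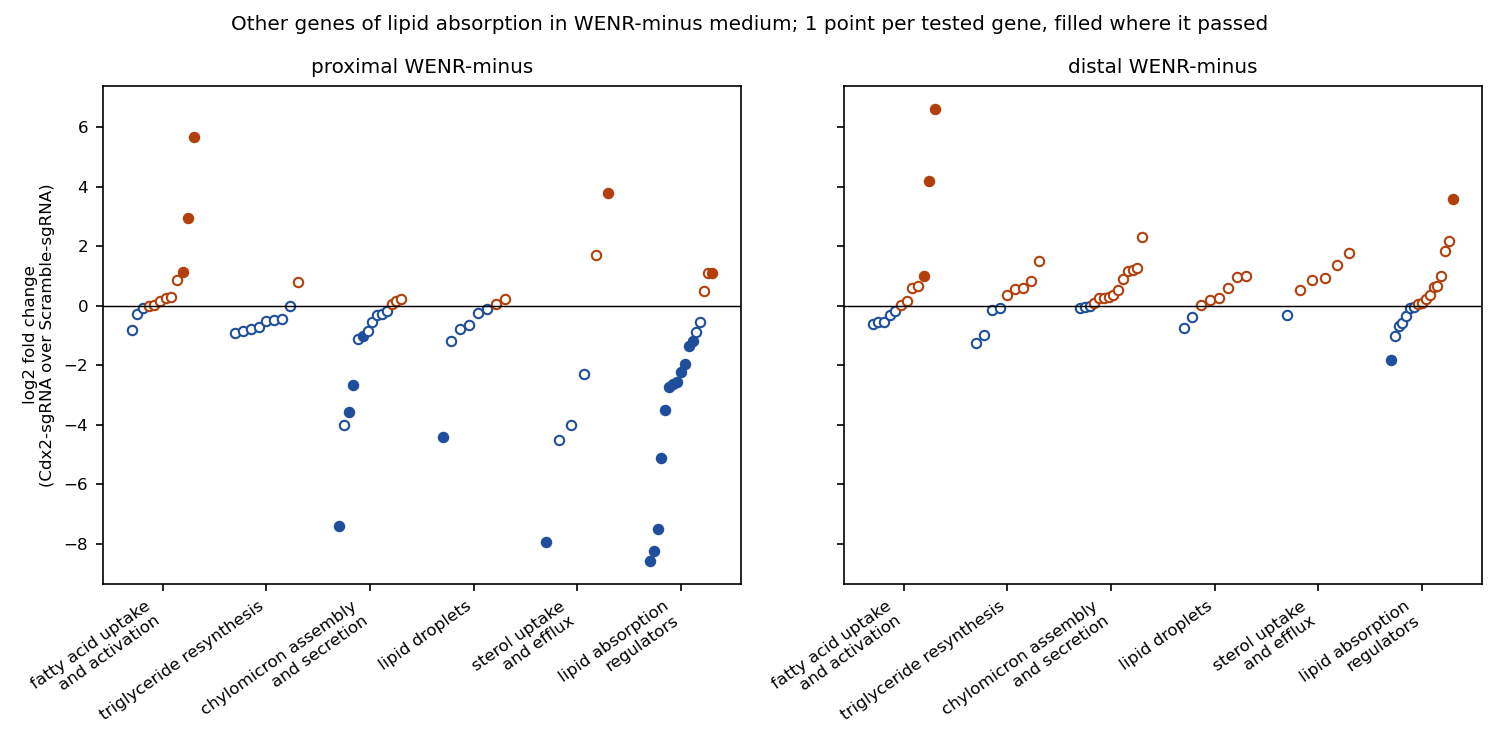
Fitted log2 fold changes between guides for the 66 tested genes of the 6 other groups of lipid absorption genes in WENR-minus medium, in proximal (left) and distal (right) organoids, 1 point per gene, filled where it passed, red above and blue below 0. In proximal organoids 18 genes are lower, most of them regulators, and in distal organoids 4 are higher and 1 is lower. Values of genes with 3 reads or fewer per library in a group depend on the prior count of the fit.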

How the data were processed

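Bulk RNA was sequenced from 16 organoid libraries. Per the labels and the study's methods, the authors quantified reads with Salmon (1.1.0) on mouse transcripts and used tximport and DESeq2, for which the sources used here differ on the version. The deposited tables hold, per transcript, estimated counts and TPM, a level corrected for transcript length and library size. Estimated counts (expected counts) were summed per gene and rounded, and TPM values were summed per gene as the authors gave them. Between 0.257% and 0.509% of the counts of a library fell on transcripts with no gene in the annotation used for names and coordinates (GENCODE vM21, GRCm38) and were left out. Library totals were 12465194 to 18922143 counts. Counting intervals and limits cover counting error only.

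All 8 groups were fitted together with edgeR (4.0.16, R 4.3.3, limma 3.58.1) by its quasi-likelihood test, with TMM scaling, its filter on low counts and a prior count of 0.125. P-values were adjusted by Benjamini-Hochberg over 15289 genes, and calls needed a value below 0.05 together with a log2 change of more than 1 in size. Adjusted p values in the text are from this test unless DESeq2 (1.42.0) is named. Cdx2-sgRNA minus Scramble-sgRNA, WENR-minus minus WENR-plus and proximal minus distal are the directions of all differences. A group with at most 3 reads in each library was taken as at the limit. On simulated counts, 77.9% of 95 genes changed by 1.5 and 99% of 96 changed by 3 on the log2 scale were called in the distal WENR-minus comparison of guides. Every gene was simulated with the same spread and not with its own, so these shares do not give the chance of a call for the members.

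The members and gene lists were chosen with earlier results of these data known. By rule, all 10 members were named, and in each comparison of media or guides the 3 called genes of the other lists with the largest change and at least 5 CPM in the higher group. For likeness the rule took the 3 genes with the highest r. Alternatives were RLE scaling, no filter, at least 10 counts in every library, the replicate number as a block, offsets for transcript length, a fit of the compared groups alone, DESeq2, and leaving out each library. The methods name 2 mice, and same-numbered libraries were taken as 1 mouse. The correlation of their deviations from the group means was -0.0594 to 0.589 (median 0.0729), over 0.1 in 9 of 28 pairs of groups. It was 0.281, 0.404, 0.407 and 0.589 between the media of 1 line. The edgeR p-values of the main fit set a change against the spread between the 2 libraries of a group, estimated over all groups together.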

Additional observations from a re-analysis of the deposited data

Results flagged for a closer look

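The difference between proximal and distal organoids in WENR-minus went in opposite directions for Fabp2 in the 2 guides. It was 1.72 on the log2 scale with Scramble-sgRNA (higher in both proximal libraries, adjusted p = 0.141 by edgeR) and -1.49 with Cdx2-sgRNA (lower in both proximal libraries, adjusted p = 0.180, and 0.0460 in a fit of the compared groups alone). The difference between them was -3.21, with an adjusted p of 0.0693. Without distal Scramble-sgRNA replicate 1 the first was 3.39 (adjusted p = 0.0342 by edgeR) and the difference between them -4.88 (adjusted p = 0.0113).

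For Dgat1 in Scramble-sgRNA organoids the proximal minus distal difference was -0.76 in WENR-minus and 0.39 in WENR-plus. In CPM both proximal libraries lay below the distal ones in WENR-minus and above them in WENR-plus. In TPM the WENR-minus order does not hold, since distal replicate 2 lies below proximal replicate 2. The WENR-minus difference less the WENR-plus difference was -1.15, with an adjusted p of 0.411 by edgeR.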

How the results depend on the processing

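Of 859 values of 78 member results under the alternative settings, 741 kept their direction and side of the threshold, 59 lost the call, 51 gained it and 8 changed sign. Where a value changed, the cause was not tested, except that the filter of 10 counts in every library tests fewer genes. With only 2 libraries a group, depth limits Fabp1, Cd36 and, in proximal organoids, Apoa1, Apoa4 and Apoc3.

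Numbers of members called are given here with the share of all genes called in brackets. Without a filter, the number was 7 (16.4%) for withdrawal in distal Scramble-sgRNA organoids. For the guides it was 2 (11.3%) in proximal and 3 (2.14%) in distal WENR-plus. For the segments with Scramble-sgRNA it was 5 (5.9%) in WENR-minus and 1 (3.79%) in WENR-plus. The segment difference of the guide effect gave 3 (11.6%) in WENR-minus and 1 (6.79%) in WENR-plus. The guide difference of the withdrawal response gave 2 in each segment (5.82% in proximal and 1.29% in distal organoids). The segment difference of the withdrawal response with Scramble-sgRNA gave 1 (1.66%). P values without a filter, over 27429 genes, were far smaller than in the other fits for some members (3.382e-46 against 0.244 for the guide difference of the distal response of Apob), and nothing is rested on them. With at least 10 counts in every library the number of members called was 1 (7.99%) and 2 (37.3%) for withdrawal in proximal and distal Cdx2-sgRNA organoids. For the guides it was 1 (17.5%), 1 (5.98%) and 2 (12.3%) in proximal WENR-minus, distal WENR-minus and proximal WENR-plus. For the segments it was 0 (5.73%) in Scramble-sgRNA WENR-minus, 2 (33%) in Cdx2-sgRNA WENR-minus and 0 (12.9%) in Cdx2-sgRNA WENR-plus. In fits of the compared groups alone it was 0 for withdrawal in proximal Cdx2-sgRNA, where 0 of 13518 genes were called. For the guides in the same order it was 1 (19%), 2 (4.87%) and 2 (13.9%). For the segments it was 0 (6.52%) in Scramble-sgRNA WENR-minus and 1 (12.8%) in Cdx2-sgRNA WENR-plus. The guide difference of the proximal withdrawal response gave 1 (0.558%). Length offsets gave 1 (19.9%) and 2 (14.3%) for the guides in proximal WENR-minus and WENR-plus. They gave 1 in each of the same segment comparisons (5.1% and 15.5%). RLE scaling and DESeq2 gave 2 for the guides in proximal WENR-plus (15.6% and 16.6%). DESeq2 gave 1 (17.2%) for the segment difference in WENR-minus. For the guide difference of the withdrawal response it gave 1 (7.63%) in proximal and 1 (0.785%) in distal organoids.

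With the replicate block, 2 members were called between guides in proximal WENR-plus, against 16.7% of all genes. Without it 1 was called there, against 15.9%. The block changed no other member's call than those of Fabp2, Mttp and Apoa1 given above. It is a term common to all groups, and a fit paired within each line was not run.

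Leaving out 1 library lowered the number of members called in some comparisons of media, guides and segments and raised it in others. The share of all genes called moved as well. These fits leave 1 library in a group and test another set of genes, so such counts are not read as results about the members.

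The values that changed sign were those of Mttp on distal withdrawal (-0.49 with Scramble-sgRNA and -0.17 with Cdx2-sgRNA, each without WENR-minus replicate 1), Dgat1 between guides (-0.080 in distal WENR-minus without Scramble-sgRNA replicate 2, and in proximal WENR-plus 0.14 with length offsets and 0.074 without Cdx2-sgRNA replicate 2), Apob between guides in proximal WENR-plus (0.44 without Cdx2-sgRNA replicate 1 and 0.74 without Scramble-sgRNA replicate 2) and the guide difference of the distal withdrawal response of Fabp2 (0.13 without Scramble-sgRNA WENR-minus replicate 1). None of these was called. Over all libraries left out in turn, these values ran from -0.49 to 1.24 and -0.17 to 1.48 for Mttp, -0.080 to 0.81 and -0.47 to 0.074 for Dgat1, -1.25 to 0.74 for Apob and -2.96 to 0.13 for Fabp2.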
